A study of Mus musculus with 9 samples.

Results

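The interleukin 1 family was followed through 10 genes in the lungs of tumour-bearing mice: the cytokines Il1a, Il1b, Il18 and Il33, the receptor antagonist Il1rn, the receptors Il1r1, Il1r2 and Il1rap, the inflammasome sensor Nlrp3 and the protease Casp1. They were chosen by gene symbol, each symbol matched 1 of the 45706 rows of the deposited table, and all 10 passed the filter that left 13248 genes for testing. All groups were female BALB/c mice, 4 to 6 weeks old, engrafted in the right flank with 4T1, a line of mammary carcinoma cells from the same strain. On days 7 and 14 after engraftment one group received PBS, one an antibody against the checkpoint receptor PD1 (anti-PD1) and one the same kind of antibody in nanocapsules, with 150 µg per mouse named in the treatment text. Lungs were taken on day 21, with 3 per group and 9 in all, and poly(A) RNA was sequenced. The control lungs therefore also came from mice with a tumour, and no lung without a tumour was analysed here. The labels number the lungs but name no animals, so p-values measure only the spread between these samples, which may be technical.

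Interleukin 1 alpha and beta are cytokines of innate inflammation that signal through IL1R1 together with its accessory protein IL1RAP. The receptor antagonist encoded by Il1rn occupies IL1R1 without signalling, and IL1R2 is a decoy that binds the cytokines but lacks the signalling domain. Interleukin 1 beta and interleukin 18 are made as precursors that caspase 1 cleaves inside the inflammasome, for which NLRP3 is a sensor, while interleukin 33 is a nuclear alarmin of stromal and epithelial cells. In bulk lung RNA, fewer cells of a type and less RNA per cell cannot be told apart.

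Positions are those of GENCODE M21 on GRCm38. Il1a (chr2:129299610-129309972, minus strand) and Il1b (chr2:129364570-129371139, minus strand) were neighbours, and Il1r2 (chr1:40074079-40125231) and Il1r1 (chr1:40225080-40317257) lay next to each other on the plus strand. Il1rn (chr2:24336853-24351494), Il18 (chr9:50554827-50581840), Casp1 (chr9:5298517-5307265), Nlrp3 (chr11:59541568-59566956), Il1rap (chr16:26581704-26730117) and Il33 (chr19:29925114-29960718) were also on the plus strand. Values were gene-level, so reads over all exons of a gene were combined and membrane and soluble isoforms were not separated.

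The 100 bases before the RefSeq start (GRCm38.p6) are shown for Il1a and Il1b, because these 2 neighbours had very different RNA levels, and for Il1r2 and Il18, because their values set groups of lungs apart. Each reads 5′ to 3′ on the strand of the gene, and capitals mark TATAAA, the core letters of a TATA box.
Il1a, chr2:129309973-129310072, minus strand: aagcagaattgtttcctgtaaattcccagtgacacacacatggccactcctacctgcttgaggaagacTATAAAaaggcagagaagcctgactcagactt
Il1b, chr2:129371140-129371239, minus strand: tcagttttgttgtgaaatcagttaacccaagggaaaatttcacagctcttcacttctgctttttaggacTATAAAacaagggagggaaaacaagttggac
Il1r2, chr1:40085993-40086092, plus strand: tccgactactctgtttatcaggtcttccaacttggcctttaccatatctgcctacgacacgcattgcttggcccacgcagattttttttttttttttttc
Il18, chr9:50554600-50554699, plus strand: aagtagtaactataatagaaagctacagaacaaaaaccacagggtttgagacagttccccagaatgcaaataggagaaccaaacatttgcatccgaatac

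For Il1r2 the RefSeq start lay inside the gene as GENCODE places it, so the bases shown do not precede its GENCODE start. TATAAA began 32 bases before the start of Il1a and 31 bases before that of Il1b. All 10 genes had at least 1 RefSeq window of 300 bases (250 before to 50 after the start), 15 windows in all. Among these, 3 windows, of Il1a, Il1b and Il33, held TATAAA on the strand of the gene beginning 40 to 20 bases before the start, against 1.99% of all 32851 windows. On either strand and anywhere in the window the letters were in 13.6% of all windows. A match describes letters and not a site in use.

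Levels are given in TPM (an abundance corrected for transcript length that sums to 1000000 in each lung), so they can be set side by side between genes. Il1b was by far the most abundant member, between 2858 and 4607 TPM, and ranked 18th to 41st among all genes of a lung. It made up 89.5% to 92.9% of the summed TPM of the 5 tested ligands (Il1a, Il1b, Il18, Il33 and Il1f9, the gene of interleukin 36 gamma). In PBS lungs the means then ran from Il1r2 at 138 ± 27.3 TPM (SD, n = 3, as for all group values) through Il1rn at 110 ± 2.56, Il18 at 78.2 ± 17.2, Nlrp3 at 63.9 ± 9.29, Casp1 at 52.2 ± 2.06 and Il1rap at 44.0 ± 5.41 to Il1a at 11.2 ± 9.61, Il33 at 3.64 ± 1.20 and Il1r1 at 1.43 ± 0.479. Among these neighbours in the PBS order, the ranges of Il18 and Nlrp3, Nlrp3 and Casp1, Casp1 and Il1rap, and Il1a and Il33 overlapped. In anti-PD1 lungs Il18 stood second, at 113 ± 11.6 TPM, with a range that overlapped that of Il1rn, and in nanocapsule lungs Il1rn, Il1r2 and Il18 followed Il1b with overlapping ranges. The signalling receptor was the rarest of the 10 mRNAs in each group, and the decoy receptor Il1r2 exceeded it by 35.1 to 190.6 times within a lung.

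**Figure D1:**
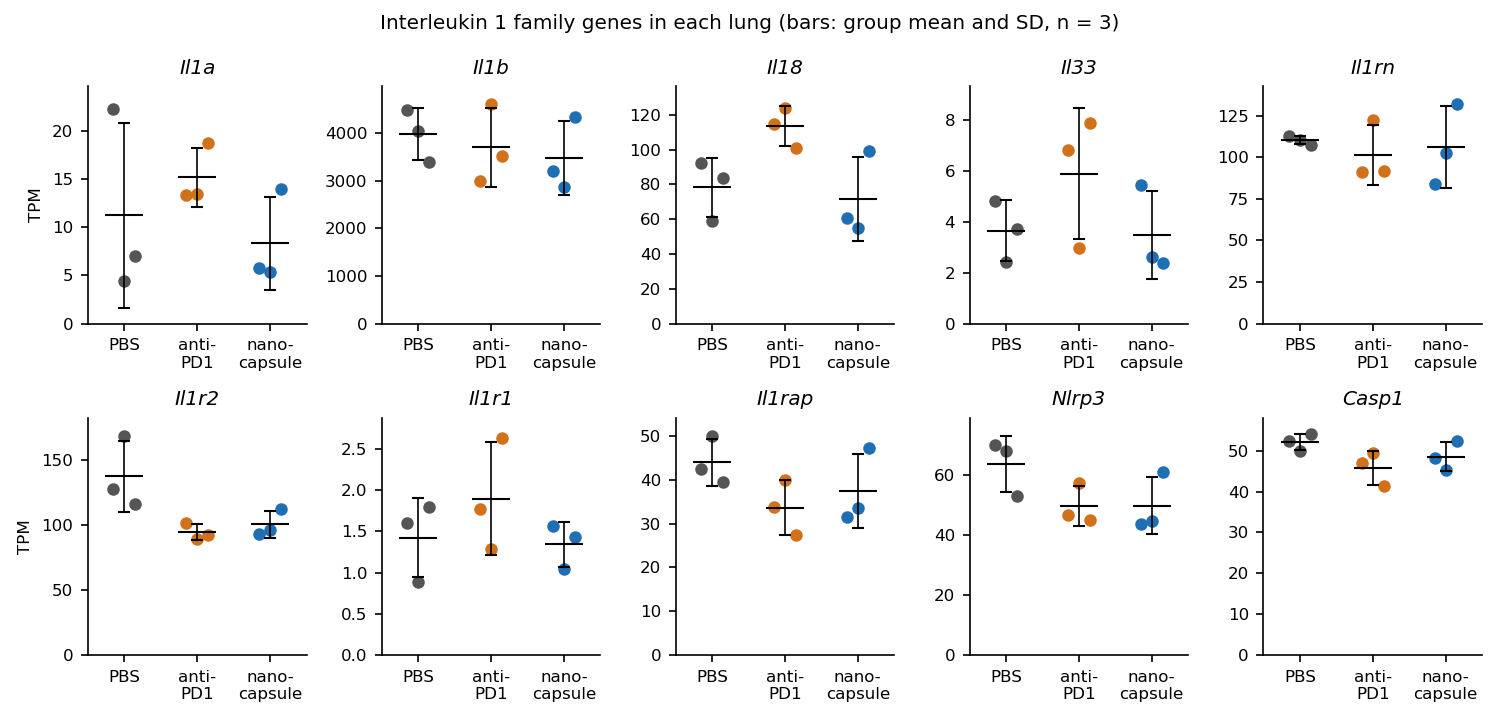
TPM (y axis from 0, own scale per gene) of the 10 genes in each lung by group, with points for lungs and bars for the group mean and SD. Il1r2 was lower in all 6 antibody-treated lungs (at most 112 TPM) than in the PBS lungs (at least 117 TPM), and Il18 was higher in the anti-PD1 lungs (at least 101 TPM) than in the other 6 (at most 99.3 TPM).

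None of the 10 genes passed the test in any comparison. The test was limma on log2(TPM + 1) over all 13248 genes, with Benjamini-Hochberg adjustment and a threshold of 0.05. Of all tested genes 0.00755% passed for anti-PD1 against PBS, 0.00755% for nanocapsules against PBS, and 0.106% for nanocapsules against anti-PD1. At an unadjusted p under 0.05, 2 members stood out for anti-PD1 against PBS (Il1r2 and Il18, with 16.5% of all genes), 2 for nanocapsules against PBS (Il1r2 and Nlrp3, with 10.1% of all genes) and 1 for nanocapsules against anti-PD1 (Il18, with 27.7% of all genes). Read against these backgrounds, the counts set the 10 genes apart in none of the comparisons. Differences below are on the log2(TPM + 1) scale, which understates changes of low genes such as Il1r1. The comparisons with PBS share their 3 control lungs.

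For anti-PD1 against PBS, 4 members had a positive and 6 a negative difference (median -0.12, against 0.04 over all tested genes). For nanocapsules against PBS all 10 were negative, where 71.2% of all tested genes were negative too (median -0.18 against -0.11 over all genes). With median-of-ratios scaling in place of the deposited TPM, the median over all genes for nanocapsules against PBS was 0.00, and Il1rn, Il1r1, Il33 and Casp1 turned slightly positive. For nanocapsules against anti-PD1, 4 were positive and 6 negative (median -0.05 against -0.17, or -0.00 over all genes with that scaling).

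**Figure D2:**
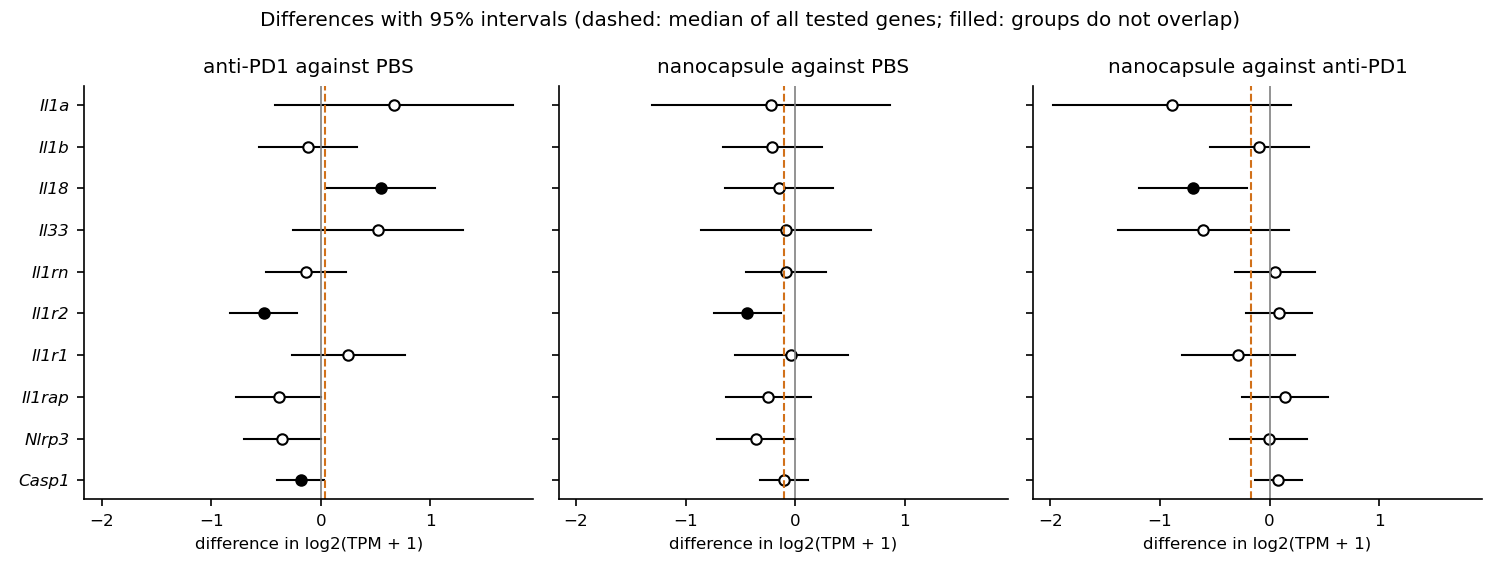
Differences in log2(TPM + 1) for the 10 genes (x axis) in the 3 comparisons, with 95% intervals from limma, filled points where the lungs of the groups do not overlap and a dashed line at the median of all tested genes. The intervals of Il1r2 lie below 0 in both comparisons with PBS, that of Nlrp3 lies just below 0 for nanocapsules against PBS, and those of Il18 lie above 0 for anti-PD1 against PBS and below 0 for nanocapsules against anti-PD1, although no gene passed after adjustment.

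Il1b measured 4478, 4046 and 3390 TPM under PBS, 2986, 4607 and 3507 TPM under anti-PD1, and 3203, 2858 and 4342 TPM under nanocapsules. The 3 groups overlapped almost completely, with the highest value in an anti-PD1 lung and the lowest in a nanocapsule lung. The differences were -0.12 (95% interval -0.57 to 0.33) for anti-PD1 against PBS, -0.21 (-0.66 to 0.24) for nanocapsules against PBS and -0.09 (-0.54 to 0.36) for nanocapsules against anti-PD1, with limma adjusted p of 0.812, 0.732 and 0.777. The last of these was 0.11 with median-of-ratios scaling, so its sign was not fixed.

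Il1a, the form of interleukin 1 that is active without cleavage by caspase 1, measured 22.2, 4.45 and 7.02 TPM in PBS lungs, 13.3, 13.4 and 18.7 in anti-PD1 lungs, and 5.74, 5.40 and 13.9 in nanocapsule lungs. PBS replicate 1 was above every other lung, and the PBS lungs spanned a 4.99-fold range. The difference for nanocapsules against anti-PD1 was -0.89 (95% interval -1.97 to 0.20, limma adjusted p = 0.251), and against PBS it was 0.67 for anti-PD1 (adjusted p = 0.516) and -0.22 for nanocapsules (adjusted p = 0.893). Single PBS lungs decided the size for Il1a: the difference of anti-PD1 from PBS was 1.27 without PBS replicate 1 and 0.23 without PBS replicate 2, and that of nanocapsules from PBS was 0.38 and -0.66. Il1b exceeded Il1a by 187 to 908 times within a lung.

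Il18, which drives interferon gamma production by T cells and natural killer cells together with interleukin 12, measured 92.2, 59.0 and 83.5 TPM in PBS lungs. In anti-PD1 lungs it measured 115, 124 and 101 TPM, and in nanocapsule lungs 60.8, 55.1 and 99.3 TPM. Every anti-PD1 lung was above every lung of the other groups, while PBS and nanocapsule lungs overlapped. Of all tested genes 12.1% had all anti-PD1 lungs above all PBS lungs, and 24.6% had all nanocapsule lungs below all anti-PD1 lungs. Both shares rest on the same anti-PD1 lungs, and the share of genes with both at once was not counted. The mean in anti-PD1 lungs was 1.45 times that in PBS lungs (log2 difference 0.55, SE 0.22, unadjusted p = 0.0327, adjusted p = 0.267, limma). The mean in nanocapsule lungs was 0.632 times that in anti-PD1 lungs (-0.70, SE 0.22, 95% interval -1.19 to -0.20, unadjusted p = 0.0104, adjusted p = 0.102, limma). Nanocapsule and PBS lungs differed by -0.15 (95% interval -0.64 to 0.35, adjusted p = 0.835, limma). Without PBS replicate 2, the difference of anti-PD1 from PBS was 0.36 and that of nanocapsules from PBS was -0.34.

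Il33 was low and measured 4.79, 2.40 and 3.72 TPM in PBS lungs, 6.80, 2.98 and 7.88 in anti-PD1 lungs, and 5.45, 2.61 and 2.37 in nanocapsule lungs. Anti-PD1 replicates 1 and 3 had the highest values, and the second anti-PD1 lung lay within the PBS range. The difference was 0.52 (95% interval -0.26 to 1.30) for anti-PD1 against PBS and -0.60 (-1.38 to 0.17) for nanocapsules against anti-PD1, with limma adjusted p of 0.476 and 0.273. Nanocapsule against PBS lungs gave -0.08 (adjusted p = 0.951, limma). Without anti-PD1 replicate 2 the first 2 differences for Il33 were 0.88 and -0.96, without anti-PD1 replicate 3 they were 0.30 and -0.38, and the first was 0.32 without PBS replicate 2.

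Il1r2, the decoy receptor, measured 128, 169 and 117 TPM in PBS lungs, 102, 89.6 and 92.5 in anti-PD1 lungs, and 93.4, 96.1 and 112 in nanocapsule lungs. Each treated lung was below each PBS lung, and the treated groups overlapped. Of all tested genes 13.4% had all anti-PD1 lungs below all PBS lungs, and 11.9% had all nanocapsule lungs below them. Both shares rest on the same PBS lungs, and the share of genes with both at once was not counted. The mean was 0.687 times that of PBS lungs under anti-PD1 (log2 difference -0.52, SE 0.14, 95% interval -0.83 to -0.22, unadjusted p = 0.00331, adjusted p = 0.211, limma) and 0.731 times under nanocapsules (-0.44, SE 0.14, 95% interval -0.74 to -0.13, unadjusted p = 0.00949, adjusted p = 0.365, limma). Nanocapsule and anti-PD1 lungs differed by 0.09 (95% interval -0.22 to 0.39, adjusted p = 0.690, limma). PBS replicate 2 had the highest value of the 9 lungs, and without it the differences from PBS were -0.37 and -0.28.

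Il1rn, the receptor antagonist, was the steadiest member among PBS lungs, at 113, 111 and 108 TPM. It measured 91.0, 123 and 91.7 TPM in anti-PD1 lungs and 83.7, 102 and 132 in nanocapsule lungs. Both treated groups had lungs above and below the PBS range, and the differences were -0.13, -0.08 and 0.05 for anti-PD1 against PBS, nanocapsules against PBS and nanocapsules against anti-PD1 (limma adjusted p of 0.726, 0.884 and 0.854). The second sign turned with median-of-ratios scaling.

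Il1r1, the signalling receptor, measured 1.60, 0.885 and 1.79 TPM in PBS lungs, 1.78, 1.28 and 2.63 in anti-PD1 lungs, and 1.56, 1.04 and 1.43 in nanocapsule lungs. The groups overlapped, and the second lung of each group was its lowest. Differences were 0.25, -0.04 and -0.29 in the same order, with limma adjusted p of 0.617, 0.971 and 0.424. Il1rap, the accessory chain also used by the receptors of interleukin 33 and interleukin 36, measured 42.5, 50.0 and 39.5 TPM in PBS lungs, 33.7, 39.8 and 27.4 in anti-PD1 lungs, and 31.6, 33.5 and 47.1 in nanocapsule lungs. Only 1 anti-PD1 lung, at 39.8 TPM, reached the PBS range, and nanocapsule replicate 3 lay inside it. The differences for Il1rap were -0.39 (95% interval -0.78 to 0.01), -0.24 and 0.14, with limma adjusted p of 0.307, 0.641 and 0.602.

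Nlrp3 measured 70.2, 68.3 and 53.2 TPM in PBS lungs, 46.9, 57.6 and 45.1 in anti-PD1 lungs, and 43.8, 44.9 and 61.0 in nanocapsule lungs. In each treated group, 2 lungs were below every PBS lung and 1 lay within the PBS range. The difference was -0.35 (SE 0.16, adjusted p = 0.305, limma) for anti-PD1 and -0.36 (SE 0.16, adjusted p = 0.486, limma) for nanocapsules against PBS, and -0.01 between the treated groups, positive with either other scaling. Casp1 measured 52.5, 50.0 and 54.0 TPM in PBS lungs, 47.0, 49.4 and 41.3 in anti-PD1 lungs, and 48.1, 45.3 and 52.3 in nanocapsule lungs. All anti-PD1 lungs were below all PBS lungs for Casp1, as for 13.4% of all genes, with a difference of -0.18 (SE 0.10, adjusted p = 0.366, limma). The nanocapsule lungs overlapped both other groups for Casp1, with differences of -0.10 from PBS and 0.08 from anti-PD1 (limma adjusted p of 0.727 and 0.587).

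Ratios within a lung do not depend on how the libraries were scaled. In all, 6 ratios were compared in 3 ways with two-sided exact permutation tests on the log ratio, for which 3 against 3 lungs allow no p below 0.1. Il1b to Il18 was 48.6, 68.5 and 40.6 in PBS lungs, 26.0, 37.1 and 34.7 in anti-PD1 lungs, and 52.7, 51.9 and 43.7 in nanocapsule lungs. The anti-PD1 lungs lay below every other lung (exact p = 0.1 against each other group, 0.6 after adjustment over the 18 tests), while PBS and nanocapsule lungs overlapped (exact p = 0.9). The antagonist to cytokine ratio Il1rn to Il1b was alike in size across groups, at 0.0281 ± 0.00336, 0.0277 ± 0.00237 and 0.0308 ± 0.00486 for PBS, anti-PD1 and nanocapsules, and the groups overlapped. Adding Il1a to Il1b left it between 0.0260 and 0.0358 over the 9 lungs. Il1r2 to Il1r1 was 112 ± 68.6, 54.1 ± 17.6 and 76.9 ± 16.4, Il1rap to Il1r1 was 35.0 ± 18.8, 20.2 ± 10.4 and 28.5 ± 7.16, and Il1b to Il1a was 531 ± 356, 251 ± 81.1 and 467 ± 135, all with overlapping groups and no adjusted p under 0.6. PBS replicate 2 had the highest value of all 3 of these ratios, and its Il1r1 was under 1 TPM.

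**Figure D3:**
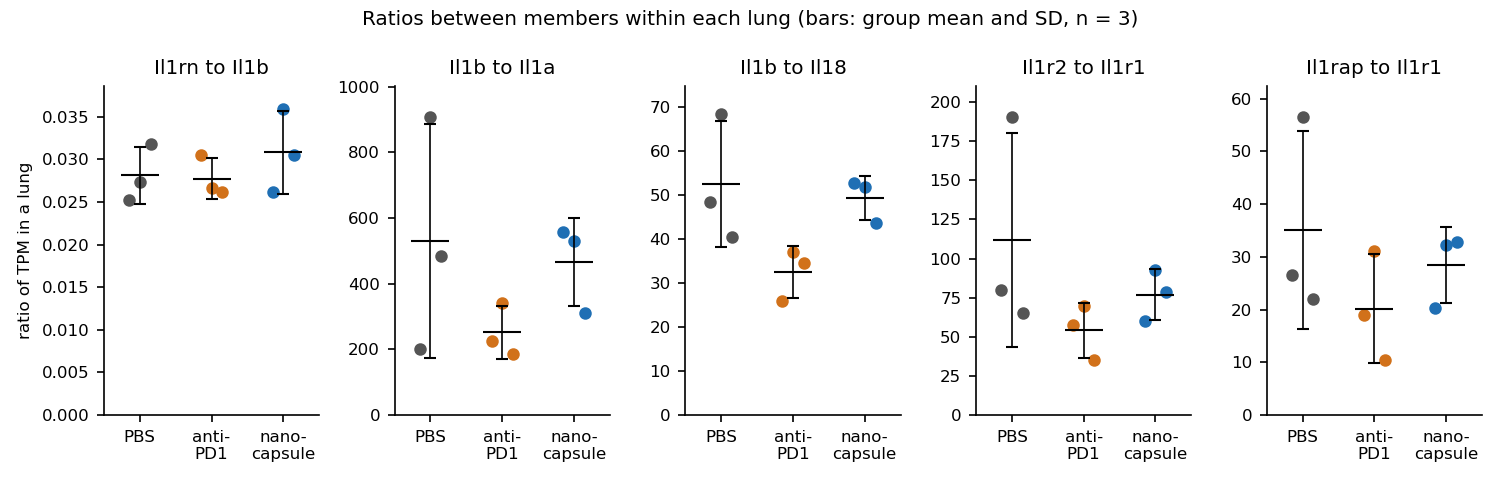
Ratios of TPM between members within each lung (y axes from 0), with points for lungs and bars for the group mean and SD. Il1b to Il18 is lower in the 3 anti-PD1 lungs (at most 37.1) than in the other 6 (at least 40.6), and the other ratios overlap between groups.

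Marker genes of cell types also stood at different levels between groups, and 8 marker lists were read beside the members. Each list is given as an index, the mean log2(TPM + 1) of its genes, and no marker of the lists named here was at 0 in any lung. S100a8 and S100a9, the calprotectin genes of neutrophils, took 10.3% to 17.5% of all TPM. The neutrophil list of 20 genes summed to between 141228 and 196134 TPM in PBS, 117881 and 134468 in anti-PD1, and 180262 and 203998 in nanocapsule lungs. Its 20 genes were all lower in anti-PD1 than in PBS lungs and all higher in nanocapsule than in anti-PD1 lungs, and 15 were higher in nanocapsule than in PBS lungs (3 passed the test, all for nanocapsules against anti-PD1). The alveolar macrophage list of 17 genes summed to between 2069 and 3348 TPM in PBS, 3438 and 4030 in anti-PD1, and 1898 and 3067 in nanocapsule lungs. All 17 were higher in anti-PD1 than in PBS lungs, 16 were lower in nanocapsule than in PBS lungs and all 17 lower in nanocapsule than in anti-PD1 lungs, with none past the test. For all marker list counts, the shares of all tested genes that were lower were 43.1% for anti-PD1 against PBS and 71.2% for nanocapsules against PBS. For nanocapsules against anti-PD1 the share was 70.8%.

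Il18 varied with the alveolar macrophage list across the 9 lungs (Pearson r = 0.976, a description over libraries that include the treatment groups). The tested gene most like it was Mrc1, the macrophage mannose receptor and itself a gene of that list, with r = 0.996, followed by Lilra5 (0.995) and Slc7a2 (0.994). The index differed by 0.53 for anti-PD1 against PBS and by -0.67 for nanocapsules against anti-PD1, without overlap between the lungs in either comparison. Il18 minus the index was 0.19 ± 0.13 in PBS, 0.21 ± 0.07 in anti-PD1 and 0.19 ± 0.11 in nanocapsule lungs, so after subtraction the groups differed by 0.02, -0.01 and -0.03, less than the spread between lungs. Against Ear2 alone, a ribonuclease gene of alveolar macrophages, Il18 TPM came to 11.1% ± 0.152 in PBS, 9.86% ± 0.380 in anti-PD1 and 10.7% ± 0.685 in nanocapsule lungs, and the 3 anti-PD1 lungs were below all others by that measure. These ways of reading Il18 were chosen after its values were seen.

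Il1r2 behaved otherwise against the neutrophil list, to which it does not belong. Across the 9 lungs its r was 0.566 with that list, and larger in size with the alveolar type 2 list (-0.680). The neutrophil index differed by -0.58 for anti-PD1 against PBS, without overlap, and Il1r2 by -0.52. In nanocapsule lungs the index was 0.13 above that of PBS lungs, with overlap, and 0.71 above that of anti-PD1 lungs, without overlap, whereas Il1r2 stayed near its anti-PD1 level. Il1r2 minus the index was -2.64, -2.60 and -2.70 in PBS lungs, -2.57, -2.65 and -2.56 in anti-PD1 lungs, and -3.20, -3.32 and -3.13 in nanocapsule lungs. On this scale the nanocapsule lungs differed by -0.57 from the PBS lungs and by -0.62 from the anti-PD1 lungs, where the SD within a group was 0.05, 0.05 and 0.10 for PBS, anti-PD1 and nanocapsules. The -0.62 reflects the 0.71 of the index, as Il1r2 itself differed by only 0.09 between the treated groups. Against PBS lungs, Il1r2 itself differed by -0.44 and the index by 0.13. The offset was not particular to Il1r2. Nlrp3 and Il1rap minus the index also lay below all PBS lungs in nanocapsule lungs (-0.49 and -0.38), and the remaining members were lower with overlap. Against anti-PD1 lungs every member was lower on this scale, from -0.57 for Il1rap to -1.60 for Il1a, and only Il33 overlapped. The share of all tested genes that were lower or did not overlap on this scale was not counted in either comparison. Between the treated groups the index itself differed by 0.71 and the median over all tested genes was -0.17. A lower value on this scale therefore does not set the members apart. Against Csf3r alone, the receptor of the granulocyte growth factor G-CSF, Il1r2 TPM came to 7.58%, 8.36% and 7.66% in PBS, 7.90%, 6.06% and 7.98% in anti-PD1, and 6.37%, 5.89% and 5.88% in nanocapsule lungs. By that measure the nanocapsule lungs still lay below all PBS lungs but overlapped the anti-PD1 lungs through anti-PD1 replicate 2, and the log2 differences for Il1r2 were smaller, at -0.38 from PBS and -0.26 from anti-PD1. This offset was also chosen after the values were seen, and the part of cell makeup in it was not tested.

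**Figure D4:**
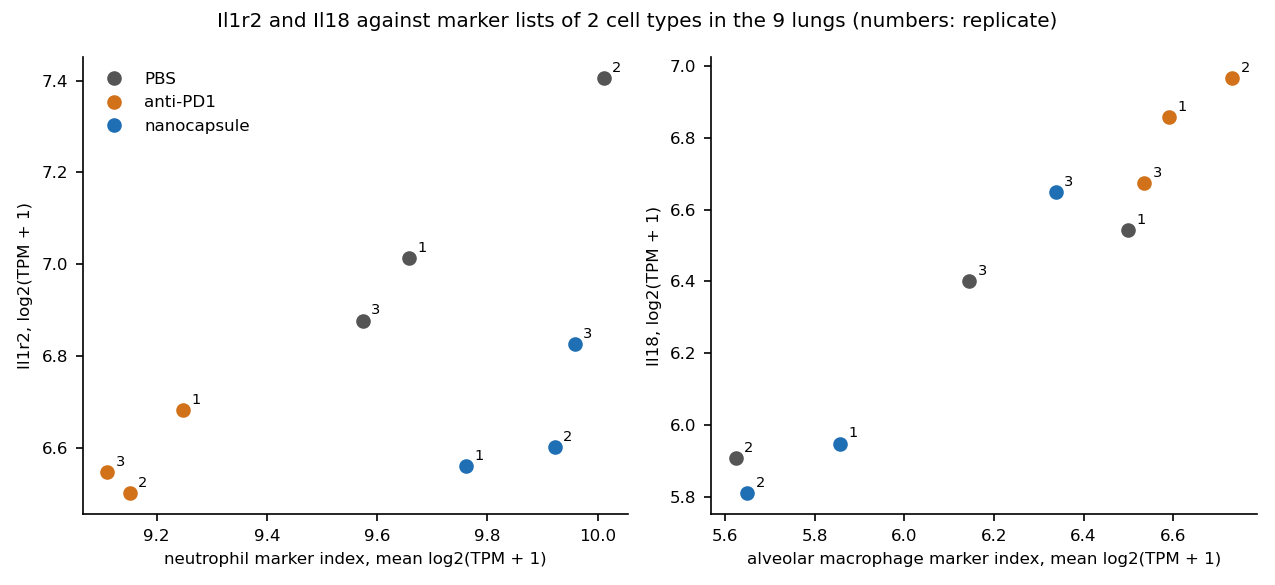
Left, Il1r2 against the neutrophil marker index, and right, Il18 against the alveolar macrophage marker index, all as log2(TPM + 1), with 1 point per lung and its replicate number. The nanocapsule lungs lie below the line of the other 6 on the left, whereas all 9 lungs fall along 1 line on the right (r = 0.976). Relative to the anti-PD1 lungs, the placing on the left comes from the higher index (0.71), as Il1r2 differed by only 0.09.

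The other members that varied with the lists differed among themselves. Il33 varied most with the fibroblast list (r = 0.924) and also with the lung endothelial list (r = 0.812), and the genes most like it were Fkbp9 (0.969), Gas6 (0.958) and Lpcat1 (0.945). Il1r1 varied with the fibroblast (0.884) and endothelial (0.881) lists and most with Slc43a3, Bod1 and Acat2 (0.984 to 0.969). Il1a varied with the alveolar macrophage list (0.894) and with Egr2, Immt and Gas2l1 (0.965 to 0.957). Endothelial genes summed to 50.5 to 140 TPM in PBS, 177 to 346 in anti-PD1 and 54.5 to 127 in nanocapsule lungs, with 14 of 14 higher in anti-PD1 than in PBS lungs and 14 of 14 lower in nanocapsule than in anti-PD1 lungs. Fibroblast genes summed to 138 to 329, 208 to 435 and 136 to 228 TPM, with 12 of 12 in the same directions. None of these genes passed the test. Other lists varied with the same 2 members: Il1r1 had r = 0.814 with T cell, 0.755 with alveolar type 2 and 0.727 with mast cell, basophil and group 2 innate lymphoid cell genes, and Il33 had 0.757 with alveolar type 2, 0.718 with T cell and 0.524 with mast cell, basophil and group 2 innate lymphoid cell genes. The alveolar type 2 index was above all PBS lungs in the anti-PD1 lungs (difference 0.86, 11 of 12 genes higher) and overlapped otherwise. The T cell index was below all PBS lungs in the nanocapsule lungs (-0.54, 14 of 14 genes lower), as was that of mast cells, basophils and group 2 innate lymphoid cells (-0.22, 9 of 12 genes lower), and both overlapped in the other comparisons. Of all tested genes 71.2% were lower in nanocapsule than in PBS lungs, so the count of 9 of 12 was near that of all genes. The median difference of its list was -0.06, against -0.11 over all genes. By far the largest difference of that list was that of Tpsb2 (-2.02, limma adjusted p = 0.280), at 6.51 ± 3.53 TPM in PBS and 0.818 ± 0.639 in nanocapsule lungs. The 3 genes of the list that were higher, Ms4a2, Fcer1a and Il13, differed by 0.20, 0.13 and 0.02. No gene of these 3 lists passed the test. The part of any list in the values of Il33 and Il1r1 was not tested.

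Il1b followed none of the lists closely, with r = 0.0083 for neutrophils, 0.14 for monocytes and interstitial macrophages and 0.40 for alveolar macrophages. The monocyte and interstitial macrophage index differed between groups by at most 0.11 in size, with overlapping lungs, but its 15 genes moved both ways. For anti-PD1 against PBS 4 were higher and 11 lower, for nanocapsules against PBS 6 and 9, and between treatments 10 and 5. None of them passed the test. Il1rap was the member that varied most with this index (r = 0.721), but its r was larger in size with the fibroblast (-0.777) and alveolar type 2 (-0.733) lists. The tested genes most like Il1b were Cass4 (0.926), Ptgs2 (0.924), which encodes the inducible cyclooxygenase, and Plek (0.906). Among the members, Nlrp3 varied with Il1rap (r = 0.894) and with Il1b (0.836). Nlrp3 was most like Tnfaip2, Fosl2 and Map7d1 (0.981 to 0.961), Il1rap most like Tbc1d15, Kcnj2 and March7 (0.990 to 0.988), and Il1rn most like Hmox1, Sowahc and Scnm1 (0.960 to 0.937). Il1r2 was most like Sec16a, Alox15 and Pde7b (0.970 to 0.956), and Casp1 most like Dcun1d1, Zfp53 and Dleu2 (0.923 to 0.919). These are the highest of 8427 genes searched over 9 libraries and describe these libraries only.

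Of the other ligand genes of the family, Il1f9 was abundant and was the second ligand of these lungs. It measured 232, 291 and 213 TPM in PBS lungs, 174, 228 and 142 in anti-PD1 lungs, and 203, 274 and 270 in nanocapsule lungs. Only 1 anti-PD1 lung was within the PBS range, and the differences were -0.45 from PBS (limma adjusted p = 0.278) and, for nanocapsules against anti-PD1, 0.47 (adjusted p = 0.149). Il1f5, Il1f6, Il1f8 and Il1f10 were at 0.289 TPM or below in every lung and were not tested.

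Among the other receptors and the binding protein of the family, 6 of 8 genes were tested and none passed in any comparison. The IL-33 receptor gene Il1rl1 was lower in nanocapsule lungs (2.69 ± 0.496 TPM) than in PBS lungs (4.09 ± 0.581 TPM) without overlap, as were 11.9% of all genes. Its difference was -0.47 (limma adjusted p = 0.429). Il18rap, an IL-18 receptor chain, was at 54.4 ± 13.4, 43.4 ± 5.76 and 56.2 ± 9.04 TPM in PBS, anti-PD1 and nanocapsule lungs. Every nanocapsule lung was above every anti-PD1 lung for it (0.36, adjusted p = 0.211, limma), as for 8.73% of all genes. Il1rl2, the IL-36 receptor gene, and Sigirr, a receptor that dampens signalling, were lower in every nanocapsule lung than in any anti-PD1 lung (-0.46 and -0.44, with limma adjusted p of 0.202 and 0.203), as for 24.6% of all genes. Il1rl2 and Sigirr had differences of 0.42 and 0.27 for anti-PD1 against PBS (adjusted p of 0.366 and 0.537, limma), and for nanocapsules against PBS Sigirr and Il18r1 had -0.16 and 0.09.

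In the inflammasome and processing list, 19 of 23 genes were tested and 1 call was made. Elane, the gene of neutrophil elastase, a protease that can cleave interleukin 1 family precursors, was higher in nanocapsule than in anti-PD1 lungs. It measured 10.1, 12.9 and 13.6 TPM in PBS lungs, 5.55, 4.72 and 5.70 in anti-PD1 lungs, and 11.6, 16.5 and 13.6 in nanocapsule lungs (difference between the treated groups 1.23, SE 0.16, adjusted p = 0.0393, limma). That call was lost when any 1 of the 6 treated lungs was left out (adjusted p from 0.0504 to 0.165, limma), with the difference between 1.11 and 1.34, and also without the filter on low values (adjusted p = 0.0832, limma). Elane also stands in the neutrophil list, and its difference of -1.05 for anti-PD1 against PBS did not pass (adjusted p = 0.156, limma). For nanocapsules against PBS its difference was 0.17, with overlapping lungs (adjusted p = 0.712, limma). Prtn3 and Ctsg, the other serine protease genes of neutrophil granules in the list, differed by 0.96 and 0.62 between nanocapsule and anti-PD1 lungs without overlap (limma adjusted p of 0.0519 and 0.0955). Of all tested genes 8.73% had all nanocapsule lungs above all anti-PD1 lungs. Prtn3 differed from PBS by -0.54 under anti-PD1 and 0.42 under nanocapsules (adjusted p of 0.211 and 0.429, limma). Nlrp12 gave -0.49 for anti-PD1 against PBS and Casp8 -0.20 for nanocapsules against PBS (adjusted p of 0.222 and 0.595, limma). The adaptor gene Pycard and the pore gene Gsdmd differed by no more than 0.10 in size in any comparison. The list's counts were 7 positive and 12 negative against PBS for either treatment, and 11 positive and 8 negative between treatments (medians -0.05, -0.05 and 0.03).

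All 27 genes of the receptor signalling list were tested and none passed. Negative differences were found for 22 of them in anti-PD1 against PBS, where 43.1% of all genes were negative, with a median of -0.15. For nanocapsules against PBS 20 were negative (71.2% of all genes) with a median of -0.11, and between treatments 19 were negative (70.8% of all genes) with a median of -0.04. The NF-kappa B genes Nfkb2, Nfkbie and Nfkbiz had the smallest p-values of the list for nanocapsules against PBS. They were lower in every nanocapsule lung than in any PBS lung, as were 11.9% of all genes. Their differences were -0.37, -0.51 and -0.47 (limma adjusted p of 0.339, 0.363 and 0.365). Nfkbiz, the inhibitor-like cofactor that many IL-1 responsive genes need, was at 93.8 ± 9.78, 79.5 ± 4.28 and 68.2 ± 13.7 TPM in PBS, anti-PD1 and nanocapsule lungs. For anti-PD1 against PBS the smallest p-values were those of Irak4, Myd88 and Ikbkg (-0.37, -0.29 and -0.28, with limma adjusted p from 0.241 to 0.289). Myd88, the adaptor of the receptor complex, was at 279 ± 32.3, 228 ± 31.1 and 301 ± 23.1 TPM. It was higher in every nanocapsule than in any anti-PD1 lung (0.40, adjusted p = 0.0921, limma), as were 8.73% of all genes. Peli2 and Relb followed with 0.34 and -0.26 (adjusted p of 0.115 and 0.166, limma).

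Of 26 textbook target genes of interleukin 1, 19 were tested and none passed. Lcn2, the gene of the iron carrier-binding lipocalin 2, was at 3612 ± 825, 2168 ± 241 and 4025 ± 159 TPM in PBS, anti-PD1 and nanocapsule lungs. It was lower in every anti-PD1 lung than in any other (-0.72 against PBS, adjusted p = 0.211, and 0.90 for nanocapsules against anti-PD1, adjusted p = 0.0519, limma). Lcn2 is in the neutrophil list as well, all 20 genes of which had the same signs in these comparisons. Nos2, inducible nitric oxide synthase, had the same pattern (-0.73 and 0.68, adjusted p of 0.216 and 0.109, limma), and Birc3 was lower in every anti-PD1 than in any PBS lung (-0.33, adjusted p = 0.257, limma). Of all tested genes 13.4% had all anti-PD1 lungs below all PBS lungs, and 8.73% had all nanocapsule lungs above all anti-PD1 lungs. The share of genes with both at once was not counted. Mmp3, a matrix metalloproteinase gene of low level here, was at 1.22 ± 0.423, 2.40 ± 1.14 and 0.852 ± 0.137 TPM and differed by -0.83 between the treatments (adjusted p = 0.0955, limma). Zc3h12a, Ptgs2 and Birc3 had the smallest p-values for nanocapsules against PBS (-0.32, -0.52 and -0.24, with limma adjusted p from 0.474 to 0.544). The target list had 9 positive and 10 negative differences for anti-PD1 against PBS (median -0.02), 4 and 15 for nanocapsules against PBS (median -0.23) and 5 and 14 between treatments (median -0.24). Over all tested genes 43.1%, 71.2% and 70.8% were negative in these comparisons, with medians of 0.04, -0.11 and -0.17, so the counts of negative target genes were near those of all genes.

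**Figure D5:**
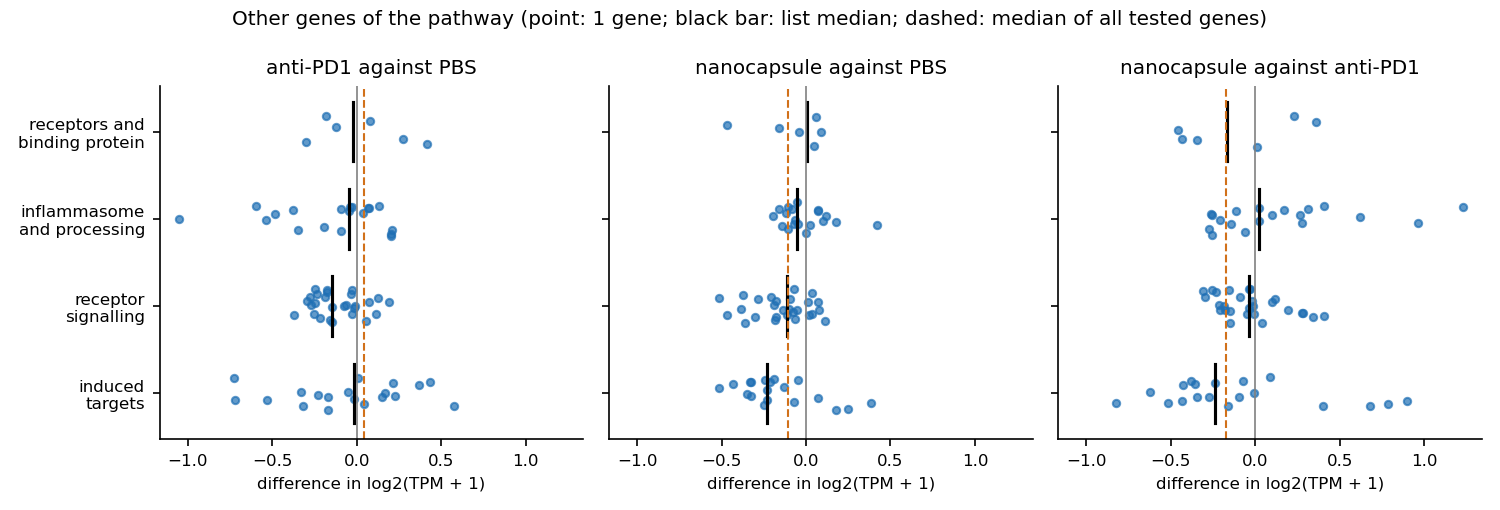
Differences in log2(TPM + 1) (x axis) of the tested genes of 4 pathway lists in the 3 comparisons, with 1 point per gene, a black bar at the list median and a dashed line at the median of all tested genes. The receptor signalling genes lie mostly below 0 for anti-PD1 against PBS (22 of 27), and Elane is the point at 1.23 on the right.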

How the data were processed

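Poly(A) RNA of 9 lungs was measured, 3 per group. The deposited values are gene-level TPM that sum to 1000000 in each lung, so depth is unknown and no count test or counting interval was possible. The submitters' processing notes name GRCm38 and DESeq2, and salmon, a transcript quantifier, appears without a version in what the authors called their table. The TPM were transformed to log2(TPM + 1) and those genes that reached 1 TPM in 3 or more lungs entered a limma 3.58.1 fit (R 4.3.3) with trend, 3 groups together, 6 residual degrees of freedom and Benjamini-Hochberg adjustment. The fit was tested on simulated data. TPM share a fixed total, so abundant neutrophil genes move all other values. The 10 members and the pathway and marker lists were chosen with earlier results of these data known. Named genes were all members, every called pathway gene, the 3 smallest p-values per pathway list and comparison where the mean reached 1 TPM, and the 3 genes most correlated with each member (mean of 5 TPM or more). Pycard, Gsdmd and the low interleukin 36 family ligands were named after their values were seen. Alternatives were another pseudocount, no filter, median-of-ratios scaling, rescaling without S100a8 and S100a9, a replicate block, 2-group fits and each lung left out. Sequences are from RefSeq promoters (GRCm38.p6).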

Additional observations from a re-analysis of the deposited data

Results flagged for a closer look

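Elane differed between nanocapsule and anti-PD1 lungs by 1.23 on the log2(TPM + 1) scale, the one pathway gene for which the test of the difference between the antibody forms passed (limma adjusted p = 0.0393, 3 lungs per group, and 0.0832 without the filter on low values). For Prtn3 (0.96) and Lcn2 (0.90) every anti-PD1 lung was below the PBS mean and every nanocapsule lung above it. For Mmp3 (-0.83) every anti-PD1 lung was above the PBS mean and every nanocapsule lung below it. For these 3 genes that opposite placing was not tested as such, and the limma comparison of the treated groups did not pass (adjusted p of 0.0519, 0.0519 and 0.0955). How many of all tested genes had such a placing was not counted. Of all tested genes 8.73% had every nanocapsule lung above every anti-PD1 lung, and 24.6% had every nanocapsule lung below. Elane and Lcn2 also belong to the neutrophil list, whose 20 genes were all higher in nanocapsule than in anti-PD1 lungs.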

How the results depend on the processing

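No member passed in any of the 45 refits, counted over alternatives and comparisons. The count of genes passing was 1 for anti-PD1 against PBS, 1 for nanocapsules against PBS and 14 for nanocapsules against anti-PD1. For anti-PD1 against PBS it was 0 with a pseudocount of 0.1 TPM, with median-of-ratios scaling and after rescaling without S100a8 and S100a9, and 0 to 3 with 1 lung left out. For nanocapsules against PBS it was 2 with that pseudocount, 0 without the filter, 4 with either other scaling and 0 to 4 with 1 lung left out. For nanocapsules against anti-PD1 it was 3 without the filter, 22 with median-of-ratios scaling, 79 after the rescaling, 476 in a fit of those 2 groups alone and 0 to 962 with 1 lung left out (962 without PBS replicate 2, 188 without PBS replicate 3). Lungs with the same number did not deviate together throughout (correlations from -0.18 to 0.28). Between PBS and anti-PD1 lungs, however, the same-number correlations were 0.064, 0.28 and 0.28, and the other correlations ran from -0.26 to 0.015. The labels name no pairing, and whether lungs with the same number share a batch was not tested. A replicate block gave 1, 5 and 1095 genes in the 3 comparisons, and no member. The cause of these shifts was not tested. Median-of-ratios scaling turned the sign for Il1rn (0.042), Il1r1 (0.039), Il33 (0.016) and Casp1 (0.018) in nanocapsules against PBS and for Il1b (0.11) and Nlrp3 (0.19) in nanocapsules against anti-PD1, and the rescaling that of Nlrp3 (0.074). With 1 lung left out the sign turned for Il1b in anti-PD1 against PBS (-0.29 to 0.027). In nanocapsules against PBS it turned for Il1a (-0.66 to 0.38), Il1rn (-0.25 to 0.077), Il1r1 (-0.21 to 0.076), Il18 (-0.40 to 0.015), Il33 (-0.38 to 0.095), Il1f9 (-0.075 to 0.16), Sigirr (-0.28 to 0.061) and Il18r1 (-0.026 to 0.21). In nanocapsules against anti-PD1 it turned for Il1b (-0.27 to 0.077), Il1rn (-0.12 to 0.21), Il1rap (-0.032 to 0.27) and Nlrp3 (-0.16 to 0.098). Without a turn of sign, 1 lung left out moved Il1r1 (0.073 to 0.41), Il1rap (-0.51 to -0.25) and Casp1 (-0.24 to -0.11) in anti-PD1 against PBS by over 1.5 times. Log2 ratios turned for Il1rn to Il1b (-0.092 to 0.075) and Il1rn to Il1a plus Il1b (-0.096 to 0.074) in anti-PD1 against PBS, and in nanocapsules against PBS for Il1r2 to Il1r1 (-0.71 to 0.071), Il1b to Il18 (-0.23 to 0.15), Il1rap to Il1r1 (-0.48 to 0.20) and Il1b to Il1a (-0.55 to 0.53). Il1r2 kept its sign against PBS in every setting, and Il1r2 minus the neutrophil index lay between -0.61 and -0.52 for nanocapsules against PBS with 1 lung left out. Depth is unknown, which limits values near 1 TPM such as Il1r1.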
